A study of Danio rerio with 6 samples.

Results

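The 21 genes described here carry the annotation embryonic pectoral fin morphogenesis (a Gene Ontology term) in the deposited gene table. Membership follows that annotation and uses no measured value, out of 31624 genes in the table, although the term itself was picked for study with earlier results of these data known. The term is held by 26 rows, and 5 of these were left out by name and are not analysed here. The libraries came from 3 samples of rhpn2 mutants and 3 wild type samples, each lettered a to c, all of them intact zebrafish embryos taken 72 hours post fertilization. Both groups were raised in E3 solution (a salt medium for fish embryos) at the same temperature, and rhpn2, which encodes rhophilin-2, was knocked out in the mutants, per the labels. The rhpn2 allele, the strain, the clutches and the number of embryos in a sample were not stated by the labels. P-values therefore refer to the spread among these libraries alone, part of which may be technical.

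The pectoral fin is the fish counterpart of the forelimb. Its bud arises in the lateral plate mesoderm, where retinoic acid and Wnt signals precede Fgf ligands made by the mesenchyme. An overlying ridge of ectoderm answers with Fgf signals of its own, and the bud then grows out, forms a cartilage disc and girdle, receives muscle precursors and extends a fin fold stiffened by actinotrichia. Most of the 21 genes also act in other organs, such as brain, eye, pharyngeal arches and neural crest. A whole embryo sample mixes all of these, and fewer cells of a type cannot be told apart from less RNA per cell.

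Libraries held 14918069 to 17056923 counts. The rhpn2 transcript averaged 2.85 ± 0.131 FPKM (counts per kilobase of exonic sequence, scaled to the library total) in mutants and 11.5 ± 0.675 FPKM in wild type (SD, n = 3 each). Its log2 change was -2.12 (SE 0.10, edgeR adjusted p 5.04e-08). An exact two-sided permutation test gave p = 0.1, the smallest that 3 samples against 3 allow. Wild type a stood apart from the other samples on the second principal component, which held 12.3% of the variance. FPKM is scaled by library totals, whereas log2 changes and tests below use edgeR's TMM scaling. With library totals the median log2 change of all genes is 0.113 instead of 0.006, so each change stands against the TMM scale where no other is given.

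In mutants 7 of the 8 transcription factor genes rose, while 2 of 4 secreted signals and 2 of 3 enzyme genes fell. Of the 21 genes, 9 rose and 5 fell at an adjusted p below 0.05 over all 20032 genes tested by edgeR's quasi-likelihood test, and 7 did not pass. All 21 passed the filter on low counts. Over all genes tested 33.2% were called, 16.5% higher and 16.7% lower. These shares were not matched for length or level. The 21 genes had a median of 3023 exonic bases and 8.18 FPKM, beside 2383 and 5.30 for all genes tested. Of tested genes above 6000 bases 25.3% were higher and 9.29% lower. Of those up to 1500 bases 11.3% were higher and 18.1% lower. The median log2 change of the 21 genes was 0.085, beside 0.006 for all genes tested, with 13 changes positive and 8 negative. Their median absolute log2 change was 0.46 beside 0.30. No member reached an absolute log2 change of 1, which 7.94% of all genes did together with a call. In FPKM the groups did not overlap for 15 of the 21 genes, 11 of them higher and 4 lower in mutants, against 49.0% of all genes tested. On the TMM scale they did not overlap for 17 genes, 11 of them higher in mutants, against 47.8% of all genes tested. Without wild type a, 12 members were called, 8 higher and 4 lower.

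**Figure D1:**
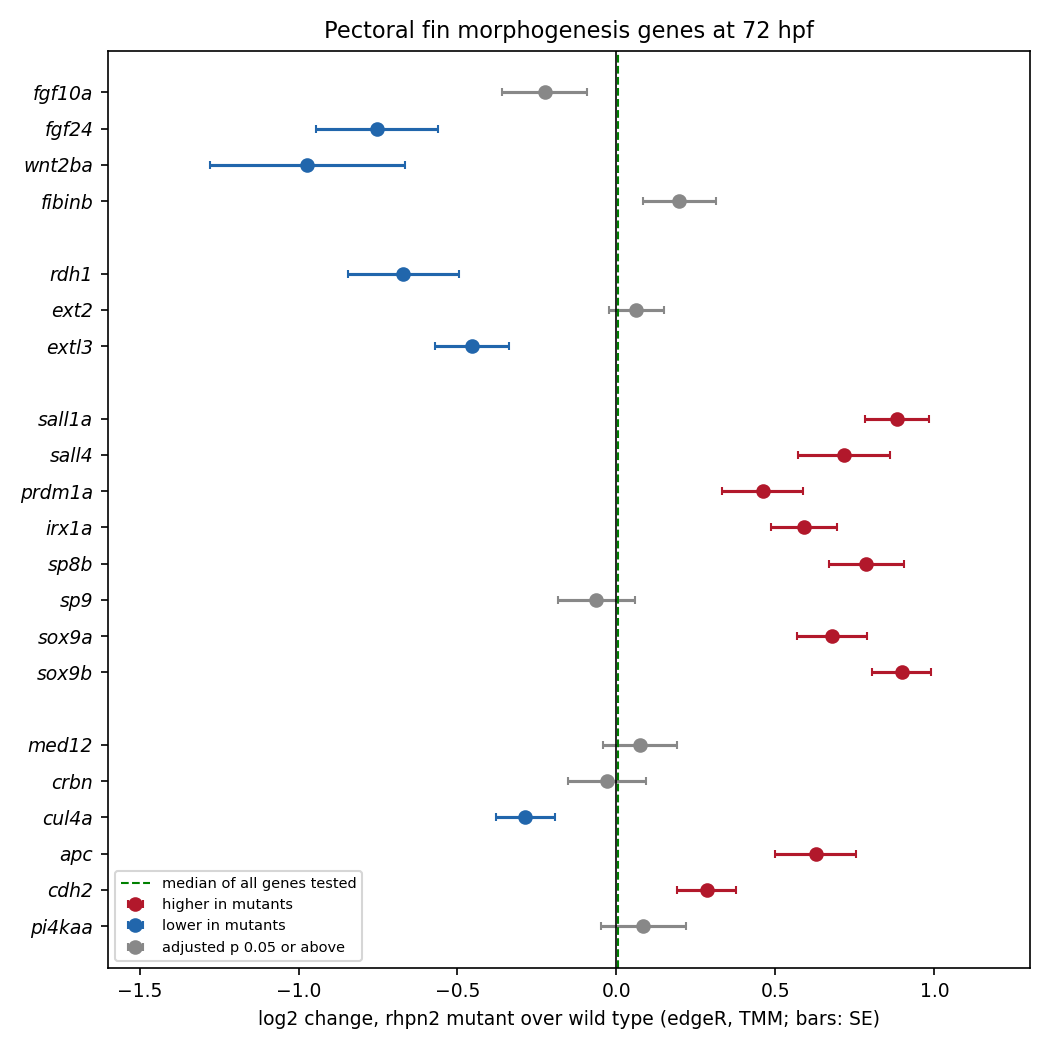
Log2 change of each gene in rhpn2 mutants over wild type (edgeR, TMM scaling, 3 samples a group), ordered by role from signals at the top through enzymes and transcription factors to the remaining genes. Points are estimates, bars are SE, colours mark calls at an adjusted p below 0.05, and the dashed line is the median of all genes tested; 7 of the 8 transcription factors lie to the right, between 0.46 and 0.90.

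Among the secreted signals, 2 of 4 fell and none rose. The Fgf ligand gene fgf24 (ENSDARG00000037677, chromosome 14, 5200149 to 5239663, minus strand), needed in zebrafish for the fin bud to form, had 2.05, 1.77 and 2.35 FPKM in mutants a, b and c, against 3.68, 3.22 and 2.73 FPKM in wild type a, b and c. Every mutant sample lay below every wild type sample. The fall was 1.69-fold (log2 change -0.75, SE 0.19, adjusted p 0.0096), and -0.61 on the log2 scale without wild type a, the highest of the wild type samples. The Wnt ligand gene wnt2ba (ENSDARG00000005050, chromosome 6, 48254690 to 48272928, plus strand), whose product acts at the start of zebrafish fin development, had 0.83, 0.48 and 1.02 FPKM in mutants, against 1.52, 1.51 and 1.18 FPKM in wild type. These levels rest on 25, 14 and 27 counts in mutants and 41, 40 and 32 counts in wild type, the thinnest of the 21 genes. Its fall was 1.96-fold (log2 change -0.97, SE 0.31, adjusted p 0.0278). That call was lost without mutant a or b or wild type a or b (adjusted p 0.0637 to 0.106 by edgeR) and with DESeq2 (0.0536) or limma on log2(FPKM + 0.1) (0.0561).

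Neither of the other secreted factors passed. The mesenchymal ligand gene fgf10a (ENSDARG00000030932, chromosome 21, 19612178 to 19645986, plus strand), whose product signals from mesenchyme to ridge, had 5.15, 4.45 and 4.68 FPKM in mutants, against 4.82, 5.28 and 5.39 FPKM in wild type. Mutant a lay above wild type a, so the groups overlapped in FPKM. On the TMM scale every mutant sample lay below every wild type sample. The log2 change was -0.23 (95% interval -0.49 to 0.037, adjusted p 0.216), and an unnamed gene on the other strand overlaps the span of fgf10a. The gene fibinb (ENSDARG00000087196, chromosome 7, 34018901 to 34021923), which encodes a secreted fin bud initiation factor, had 6.65, 6.77 and 7.29 FPKM in mutants, against 4.92, 5.74 and 6.14 FPKM in wild type. Its values did not overlap in FPKM or on the TMM scale. The log2 change on the TMM scale was 0.20 (95% interval -0.027 to 0.42, adjusted p 0.204).

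Of 3 enzyme genes for retinoid and heparan sulfate synthesis, 2 fell. The gene rdh1 (ENSDARG00000017882, chromosome 9, 48982037 to 49003321, minus strand), annotated as retinol dehydrogenase 1, an enzyme class that oxidises retinol on the route to retinoic acid, had 4.36, 4.64 and 5.43 FPKM in mutants, against 8.48, 5.87 and 6.89 FPKM in wild type. All mutant samples were below all wild type samples, and wild type a was the highest. The fall was 1.59-fold (log2 change -0.67, SE 0.18, adjusted p 0.0109), and -0.49 on the log2 scale without wild type a. An overlapping gene on the other strand may share its reads.

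The heparan sulfate genes ext2 and extl3, which in zebrafish are known from the dackel and boxer fin mutants, did not move together. The polymerase gene ext2 (ENSDARG00000056648, chromosome 7, 26573068 to 26621420) had 18.20, 17.32 and 17.24 FPKM in mutants, against 14.41, 16.18 and 16.32 FPKM in wild type, a log2 change of 0.063 on the TMM scale (95% interval -0.10 to 0.23, adjusted p 0.603). For extl3 (ENSDARG00000026811, chromosome 20, 50137614 to 50211732), whose product adds the sugar that starts the chain, values were 5.44, 5.72 and 5.05 FPKM in mutants and 5.66, 7.51 and 7.50 FPKM in wild type. In FPKM wild type a lay within the mutant range, while b and c lay above it. On the TMM scale every wild type sample lay above every mutant sample. The gene fell 1.37-fold (log2 change -0.45, SE 0.12, adjusted p 0.0102), and -0.56 without wild type a. The call of extl3 was lost with library totals (adjusted p 0.057) and with limma on log2(FPKM + 1) (0.0903).

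Of the 8 transcription factor genes, 7 rose and none fell, with a median log2 change of 0.70. The share of higher calls over all genes was 16.5%. The spalt zinc finger genes sall1a and sall4 act in the zebrafish fin bud upstream of Fgf expression. For sall1a (ENSDARG00000074319, chromosome 7, 37101221 to 37120914, plus strand) FPKM was 11.41, 11.44 and 9.77 in mutants, against 4.71, 5.95 and 5.78 in wild type. The lowest mutant sample was far above the highest wild type sample, and the rise was 1.84-fold (log2 change 0.88, SE 0.10, adjusted p 4.78e-05). For sall4 (ENSDARG00000044485, chromosome 23, 39227796 to 39234669, plus strand) FPKM was 6.46, 8.50 and 5.89 in mutants, against 3.50, 4.32 and 3.99 in wild type. Mutant b was the highest sample, and the rise of sall4 was 1.64-fold with all samples (log2 change 0.72, SE 0.14, adjusted p 0.00237) and 0.54 on the log2 scale without mutant b.

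The gene sall1a starts 0.977 Mb from the start of rhpn2 on chromosome 7, and fibinb starts 4.06 Mb and ext2 11.5 Mb from it. Within 5 Mb of rhpn2, 59 of 160 tested genes were called, 27 higher and 32 lower. That is 36.9%, beside 33.2% of all genes tested. The part of a linked haplotype in the rise of sall1a was not tested.

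Genes of the ectodermal ridge factors differed between members. The product of sp8b (ENSDARG00000056666, chromosome 16, 19730795 to 19732953, plus strand) and that of sp9 are zinc finger factors that sustain Fgf expression in the ridge. In sp8b, FPKM was 13.10, 15.30 and 13.39 in mutants, against 6.85, 7.05 and 8.62 in wild type, a 1.72-fold rise (log2 change 0.79, SE 0.12, adjusted p 0.000359). In sp9 (ENSDARG00000099374, chromosome 9, 2586372 to 2588444, minus strand), FPKM was 10.24, 8.72 and 10.15 in mutants, against 9.01, 8.50 and 10.72 in wild type. The sp9 values of the groups overlapped throughout, and the log2 change was -0.063 (95% interval -0.30 to 0.17, adjusted p 0.718), with the opposite sign, 0.044, under library totals.

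The zinc finger factor gene prdm1a (ENSDARG00000002445, chromosome 16, 7513652 to 7526042, minus strand), which zebrafish need for fin outgrowth and neural crest, had 8.65, 9.43 and 9.93 FPKM in mutants, against 4.95, 7.20 and 6.81 FPKM in wild type. Wild type a was well below b and c, and the rise was 1.38-fold with it (log2 change 0.46, SE 0.13, adjusted p 0.0149) and 0.33 on the log2 scale without it. Leaving out mutant b or mutant c ended the prdm1a call (adjusted p 0.0509 and 0.0668), at log2 changes of 0.45 and 0.40. Calls over all genes were 24.1% and 24.9% in those fits, beside 33.2% with all samples. The Iroquois homeobox gene irx1a (ENSDARG00000101831, chromosome 16, 737662 to 741827, plus strand) had 19.91, 17.23 and 18.48 FPKM in mutants, against 11.54, 10.85 and 11.87 FPKM in wild type. Its wild type samples were close together and all far below the mutants, with a 1.51-fold rise (log2 change 0.59, SE 0.10, adjusted p 0.000902).

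Both copies of sox9, which encode the factor that sets chondrocyte fate and turns on cartilage collagen genes, rose. The gene sox9b (ENSDARG00000043923, chromosome 3, 62341796 to 62348451, minus strand) had the largest rise of the 21 genes with all samples, on the TMM scale and with library totals. Its FPKM was 15.15, 14.36 and 14.89 in mutants, against 6.91, 7.94 and 7.28 in wild type, a 1.86-fold rise (log2 change 0.90, SE 0.094, adjusted p 2.49e-05). The replicates of each group were close to each other, and an unnamed gene overlaps on the other strand. For sox9a (ENSDARG00000003293, chromosome 12, 1927596 to 1931236, minus strand) FPKM was 55.07, 52.60 and 46.60 in mutants, against 24.03, 33.37 and 32.29 in wild type. Here too wild type a was low, and the rise (log2 change 0.68, SE 0.11, adjusted p 0.000571) was 0.56 on the log2 scale without it.

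**Figure D2:**
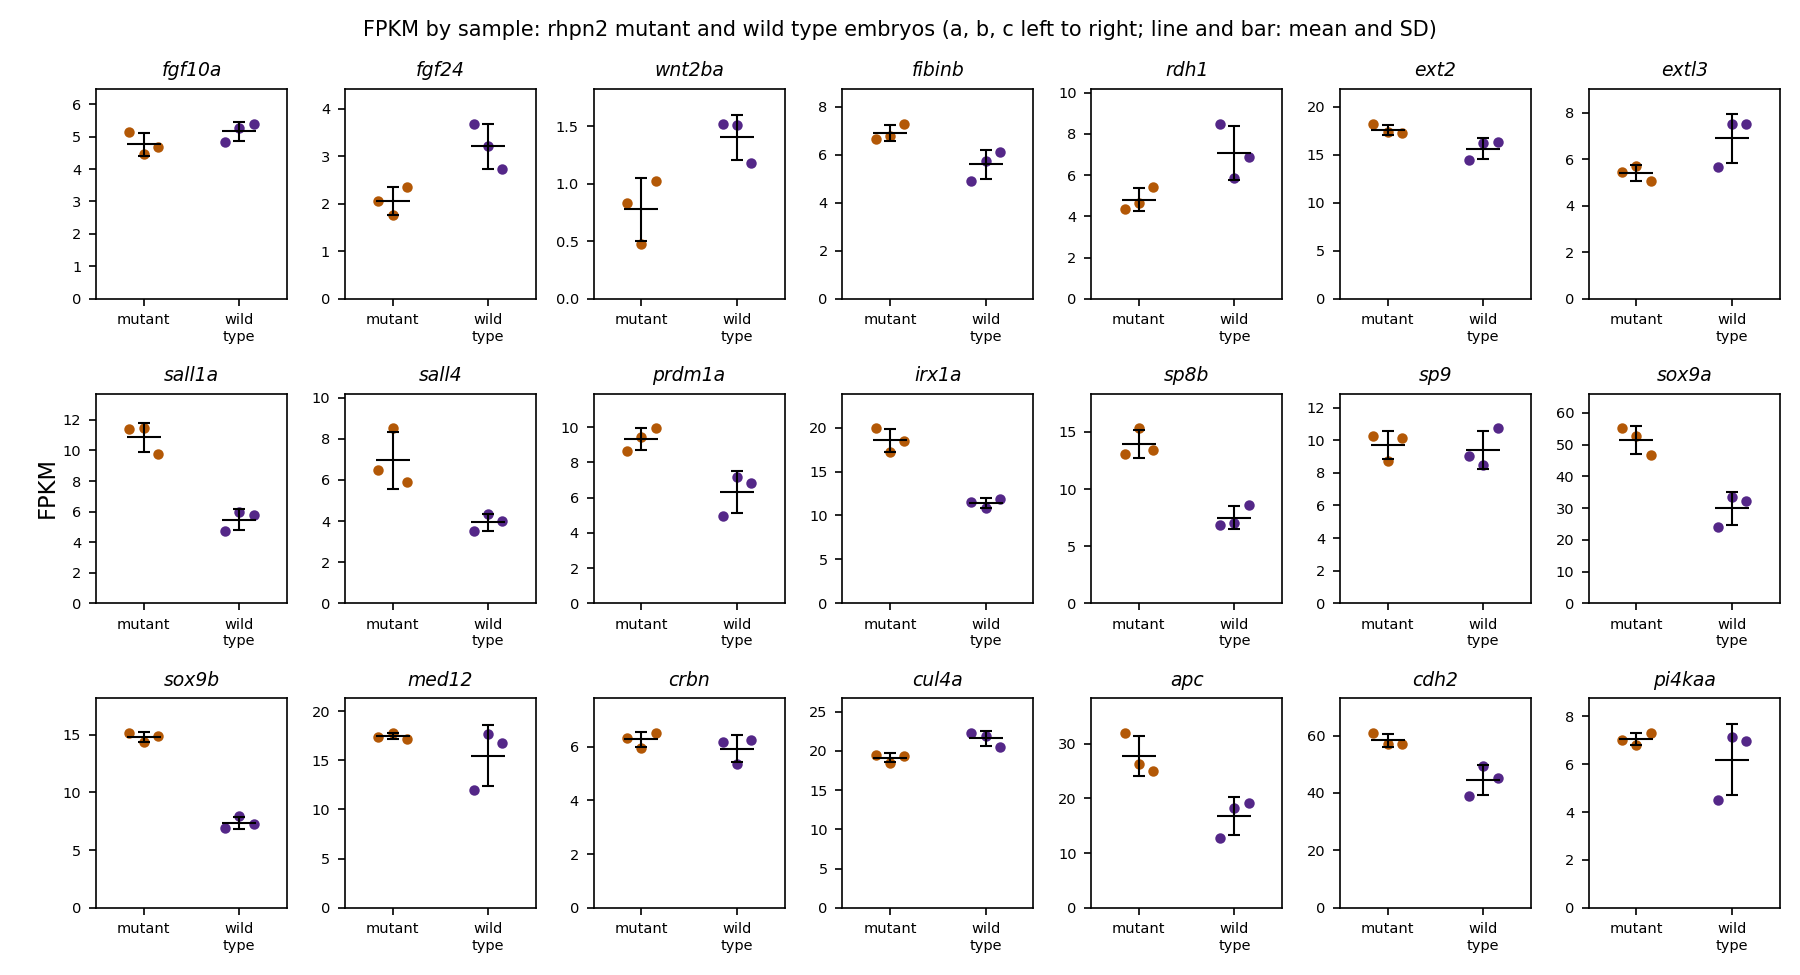
FPKM of the 21 genes by sample, with mutants a, b and c left of wild type a, b and c in each panel, every axis starting at 0, and the mean and SD drawn as a line and bar. The 3 mutant samples lie above the 3 wild type samples in sall1a, sall4, prdm1a, irx1a, sp8b, sox9a and sox9b. They do so too in apc, cdh2, ext2 and fibinb, the last 2 of which were not called. They lie below the wild type samples in fgf24, wnt2ba, rdh1 and cul4a.

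The remaining 6 genes hold general cell functions, and 2 rose and 1 fell. The gene apc (ENSDARG00000058868, chromosome 10, 1822160 to 1865381, plus strand), whose product marks beta-catenin for destruction and so restrains Wnt signalling, had 31.94, 26.36 and 24.96 FPKM in mutants, against 12.79, 18.20 and 19.18 FPKM in wild type. Mutant a was high and wild type a low. The rise was 1.54-fold with all samples (log2 change 0.63, SE 0.13, adjusted p 0.00249) and 0.49 on the log2 scale without wild type a. The N-cadherin gene cdh2 (ENSDARG00000018693, chromosome 20, 17840340 to 17919655, plus strand), a cell adhesion gene of neural tissue and mesenchyme, had 60.89, 57.07 and 57.05 FPKM in mutants, against 39.07, 49.30 and 45.24 FPKM in wild type. Its groups did not overlap, with a 1.22-fold rise (log2 change 0.28, SE 0.094, adjusted p 0.0342). A 5S rRNA gene lies on the other strand of its span. The cdh2 call was lost when any sample but wild type b was left out (adjusted p 0.0561 to 0.103), at log2 changes of 0.22 to 0.30.

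Cereblon and cullin 4A, substrate receptor and scaffold of a ubiquitin ligase through which thalidomide stunts fins in zebrafish, gave small differences. The gene cul4a (ENSDARG00000096578, chromosome 1, 157793 to 561439, plus strand) had 19.48, 18.43 and 19.34 FPKM in mutants, against 22.27, 21.94 and 20.53 FPKM in wild type. It fell 1.22-fold (log2 change -0.29, SE 0.093, adjusted p 0.0312), but its span covers or overlaps 23 other genes of the table, so its reads are uncertain. The call was lost with library totals (adjusted p 0.137), with limma on log2(FPKM + 1) (0.112) and without any mutant sample or wild type b (0.0628 to 0.107). With such a sample left out the log2 change of cul4a was -0.31 to -0.26. For crbn (ENSDARG00000054250, chromosome 6, 40459262 to 40469325) FPKM was 6.34, 5.95 and 6.51 in mutants, against 6.17, 5.36 and 6.25 in wild type. These ranges overlapped (log2 change -0.029, 95% interval -0.27 to 0.21, adjusted p 0.875), and the sign was positive, 0.079, with library totals.

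In med12 and pi4kaa the difference rested on wild type a. The Mediator subunit gene med12 (ENSDARG00000103953, chromosome 14, 23296744 to 23381894) had 17.41, 17.78 and 17.21 FPKM in mutants, against 11.94, 17.69 and 16.77 FPKM in wild type. The lipid kinase gene pi4kaa (ENSDARG00000076724, chromosome 10, 3185947 to 3260848), whose product makes phosphatidylinositol 4-phosphate, had 7.03, 6.80 and 7.31 FPKM in mutants, against 4.50, 7.14 and 6.96 FPKM in wild type. Wild type b and c lay beside the mutants in both genes, and mars2 overlaps med12 on the other strand. The log2 changes were 0.074 (95% interval -0.15 to 0.30, adjusted p 0.655) for med12 and 0.085 (-0.18 to 0.35, adjusted p 0.656) for pi4kaa, and both turned negative without wild type a, -0.063 and -0.082.

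In FPKM wild type a was the lowest of the 3 wild type samples for 14 of the 21 genes, beside 48.6% of all genes tested, and its offset followed gene size. Its TMM factor was 0.922, against 0.974 and 0.995 for wild type b and c, so FPKM places it lower than the TMM scale does. Of the 14 genes, sp8b and sox9b did not have wild type a lowest on the TMM scale. Relative to the mean of wild type b and c, its FPKM was 36.2% lower for pi4kaa, 31.6% lower for apc, 30.7% lower for med12 and 19.7% lower for sall1a, the 4 members with more than 6000 exonic bases. Over all tested genes of that size the median offset was -23.4%, while it was 6.24% for genes of up to 1500 bases, a size that no member has. With all samples the median log2 change (mutant over wild type) was 0.13 over genes above 6000 bases and -0.065 over those of up to 1500 bases. Without wild type a these medians were 0.032 and -0.026. Short members did not all sit at the median of their size, since rdh1 was 32.9% higher and sox9a 26.8% lower in wild type a than in the other wild type samples. Without wild type a the calls of wnt2ba (adjusted p 0.0637) and cdh2 (0.0561) were lost.

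**Figure D3:**
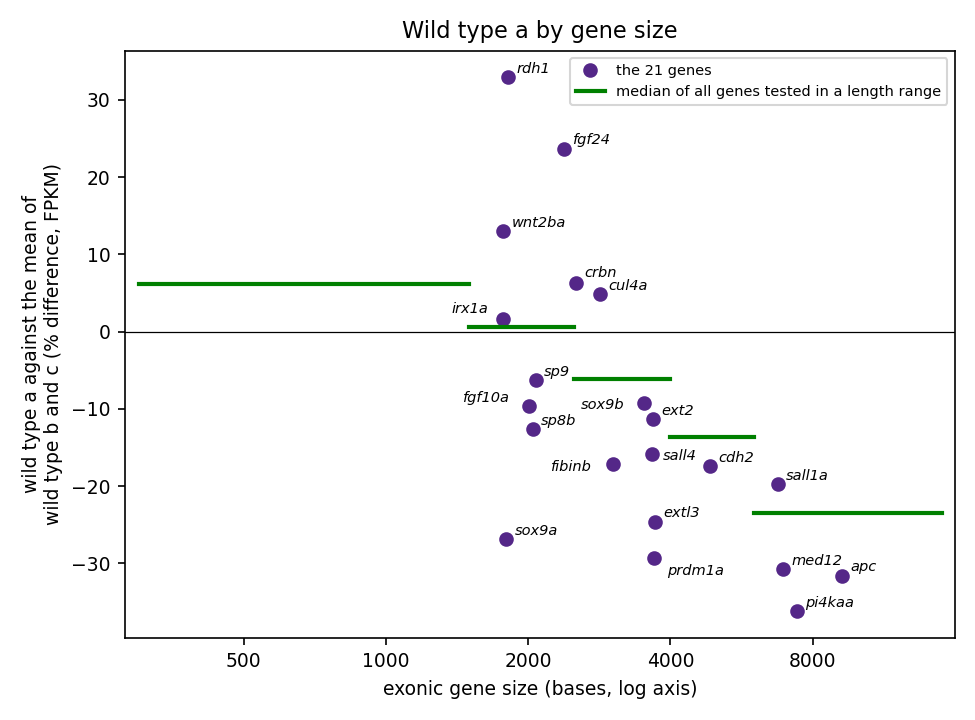
Difference of wild type a from the mean of wild type b and c (percent, FPKM) against exonic gene size (bases, log axis). Points are the 21 genes and green lines are medians of all tested genes in 5 size ranges, which go from 6.24% for the shortest range to -23.4% for the longest.

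Levels of the 21 genes, compared per length as mean FPKM, spanned a wide range. In wild type the order ran from cdh2 (44.5 ± 5.15 FPKM, SD, n = 3) and sox9a (29.9 ± 5.11) through cul4a (21.6 ± 0.924), apc (16.7 ± 3.44), ext2 (15.6 ± 1.06) and med12 (15.5 ± 3.09) to irx1a (11.4 ± 0.52) and sp9 (9.41 ± 1.16). The middle of the order, from sp8b (7.51 ± 0.969) and sox9b (7.38 ± 0.522) down to fgf10a (5.16 ± 0.302), held 10 genes whose neighbours did not differ beyond their SD, as was so of apc, ext2 and med12. At the low end were sall4 (3.94 ± 0.413), fgf24 (3.21 ± 0.475) and wnt2ba (1.40 ± 0.193). The 3 most abundant genes in mutants were cdh2 (58.3 ± 2.21 FPKM), sox9a (51.4 ± 4.36) and apc (27.8 ± 3.69).

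Other annotations of the members take in the fin as well as other organs. Pectoral fin development is listed for 5 members, of which sox9a rose, fgf24, extl3 and cul4a fell, and ext2 did not pass. Pectoral fin morphogenesis is listed for ext2, extl3 and prdm1a. The nucleus is listed as a location for 11 of 21, beside 12.3% of all genes tested, and 7 of these 11 are transcription factors that rose. Positive regulation of Fgf receptor signalling is listed for 6 of the genes tested, all of them members, namely ext2, extl3, sall1a, sall4, sp8b and sp9. Of these 6, 3 rose, extl3 fell, and ext2 and sp9 did not pass. Retina development is listed for 83 of the genes tested, among them 4 members, irx1a, sox9b, apc and cdh2, all of which rose. The calls of the other genes with that term were not counted. Of the 21 members 9 rose and 5 fell, and over all genes tested 16.5% rose and 16.7% fell. Exocrine pancreas development and heart tube development are each listed for fgf24, rdh1 and apc, of which apc rose and the others fell.

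Markers listed for fin tissues had counts in the libraries, but in whole embryos they cannot place that RNA in the fin. The calls in each marker set stand beside 16.5% higher and 16.7% lower over all genes tested. Whether a set held more calls than those shares give was not tested. All 8 fin fold and actinotrichia markers had counts. Their summed FPKM was 567 to 697 in mutants and 778 to 802 in wild type. Of these 8, and1 and and2, which encode actinodin proteins of the actinotrichia, fell, and 6 did not pass. The sum rests mostly on and1, and2 and and3, which averaged 209, 217 and 163 FPKM in mutants. Among the markers that did not pass, and3 (-0.23) and itga3a (-0.44) had negative log2 changes. Those of fras1 (0.39), frem2a (0.23), hmcn1 (0.23) and lama5 (0.046) were positive. For and2, FPKM was 192.87, 221.05 and 237.74 in mutants, against 315.51, 321.82 and 332.25 in wild type (log2 change -0.68, adjusted p 0.000513). Summed FPKM of 8 ridge markers was 47.1 to 49.2 in mutants and 45.7 to 47.8 in wild type, where sp8a and fgf24 fell and 6 did not pass. For 8 markers of bud mesenchyme the sum was 115 to 125 in mutants and 102 to 114 in wild type, with sall4 as the only call. These sums use library totals, a scale on which the median log2 change of all genes is 0.113 instead of 0.006. On the TMM scale fgf10a (-0.23), tbx18 (-0.22), meis1a (-0.17), prrx1b (-0.14) and tbx15 (-0.019) had negative log2 changes. Those of tbx2b (0.17) and prrx1a (0.11) were positive. The 8 cartilage markers summed to 834 to 1036 FPKM in mutants and 1332 to 1375 FPKM in wild type, of which 5 fell and sox9a and sox9b rose. Of 6 markers listed for migrating fin muscle precursors 5 were matched by symbol, of which lbx1a and met rose and mef2ca fell. The sum of these 5 was 25.9 to 32.4 FPKM in mutants and 21.3 to 26.1 FPKM in wild type. The other was entered as mox1 and is not in the count or sum. Under the symbol meox1 it had 7.68, 7.72 and 6.92 FPKM in mutants, against 4.98, 4.02 and 4.54 FPKM in wild type. Some of these markers are members, and the part of fin cell number in the results was not tested.

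Other genes of the pathways that build the fin were counted in 10 lists without the 21 members, and a symbol with more than 1 table entry counts once for each. Together the lists held 278 other tested genes, of which 38 (13.7%) rose and 40 (14.4%) fell, with a median log2 change of 0.051. Over all genes tested these shares were 16.5% and 16.7%.

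Few genes of the Fgf pathway passed. Of 26 other Fgf pathway genes 3 fell, none rose and the median log2 change was -0.085. That is 11.5% lower, beside 16.7% of all genes tested. These were etv5b (-0.68, adjusted p 0.000128) and etv5a (-0.64), which encode Ets factors induced by Fgf, and spry2 (-0.48), which encodes a feedback inhibitor. In etv5b, FPKM was 17.11, 16.84 and 17.04 in mutants, against 25.85, 24.24 and 25.83 in wild type, with a gap several times the spread of either group. The feedback inhibitor genes spry1 (0.051), spry4 (-0.0058) and il17rd (-0.076) did not pass. The feedback gene dusp6 (40.99 FPKM in mutants and 40.91 FPKM in wild type on average, log2 change -0.11), the Ets gene etv4 (-0.080), the receptor gene fgfr2 (-0.20) and the ridge ligand gene fgf8a (0.16) did not pass. Without wild type a 5 Fgf genes fell and 1 rose, and with library totals 3 fell and 2 rose.

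For retinoic acid, 7 of 26 genes (26.9%) fell, beside 16.7% of all genes tested, none rose and the median was 0.0074. The falls included the retinol dehydrogenase gene rdh10a (-0.62), the retinol carrier gene rbp4 (-0.81), the retinoic acid binding protein gene crabp2b (-0.97) and the receptor gene raraa (-0.34). Values of rdh10a were 28.59, 26.28 and 25.85 FPKM in mutants, against 35.67, 38.62 and 40.54 FPKM in wild type. The retinoic acid synthase gene aldh1a2 (0.16) and the degrading enzyme genes cyp26a1 (0.19) and cyp26b1 (0.15) did not pass. Leaving out 1 sample gave 4 to 8 falls, the fewest without mutant b or c, and library totals gave 4 falls and 1 rise. Without wild type a 1 of these genes rose, and limma on log2(FPKM + 1) or log2(FPKM + 0.1) gave 3 rises and 4 falls.

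Of 24 Hedgehog genes tested, 6 rose (25%, beside 16.5% of all genes), 1 fell (4.17%, beside 16.7%) and 17 did not pass. Their median log2 change was 0.22, and it was 0.073 without wild type a and 0.14 without mutant b. The rises included the ligand gene shhb (0.75), hhat (1.36), whose product attaches palmitate to the ligand, scube2 (0.71), which encodes a release factor, and gli2a (0.35). Of 2 overlapping entries for the ligand gene ihha, the one with more counts fell (-0.69), while the ligand gene shha (0.25, adjusted p 0.0818), the receptor gene ptch1 (-0.25) and the transducer gene smo (-0.11) did not pass. Without wild type a 7 rose and 3 fell, without mutant b 4 rose and none fell, and with library totals 10 rose and 1 fell. The fall of ihha was not called without mutant a, mutant b or wild type c.

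Wnt and Bmp lists held calls in both directions, at shares below those of all genes tested (16.5% higher and 16.7% lower). In the Wnt list 14.3% rose and 7.14% fell, and in the Bmp list 11.8% rose and 14.7% fell. Of 28 other Wnt genes 4 rose, among them axin2 (0.31) and ctnnb1 (0.33), which encodes beta-catenin, and 2 fell, wnt5b (-0.30) and wnt11r (-0.29). The Wnt effector gene lef1 (-0.19) did not pass. With library totals 10 Wnt genes rose and none fell. Without wild type c 1 Wnt gene rose and 1 fell, without mutant c 2 rose, and without mutant a, b or c none fell. Of 34 Bmp entries for 32 symbols, id1 and bmpr1bb having 2 each, 4 rose and 5 fell, with bmp4 (-0.43) and smad9 (-0.63) lower and msx2a (0.78) higher. Among the rises is an id1 entry with 0.553 FPKM in mutants and 0.197 FPKM in wild type on average (1.36), which overlaps the abundant id1 entry on the other strand. That abundant id1 entry averaged 294 FPKM in mutants and 326 FPKM in wild type, a log2 change of -0.26 that did not pass (adjusted p 0.0521). Without mutant b 1 Bmp gene rose and 2 fell, without mutant a 3 rose and 1 fell, without mutant c 2 rose and 3 fell, and without wild type c 2 rose and 5 fell.

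Of 38 other limb bud transcription factor genes 14 (36.8%) rose, 2 (5.26%) fell and 22 did not pass, with a median of 0.17. Over all genes tested 16.5% rose and 16.7% fell. The spalt gene sall3b rose by 1.01 on the log2 scale, with 5.41, 5.25 and 4.59 FPKM in mutants, against 2.30, 2.34 and 2.41 FPKM in wild type. The LIM homeobox genes lhx2b (0.96) and lhx9 (0.56), which act beneath the ridge, rose as well, as did meis3 (0.61), meis2a (0.42), pbx1a (0.49) and irx3a (0.36). The homeobox gene alx4a (-0.68) and sp8a (-0.37) fell. Fin mesenchyme factors prrx1a (0.11), tbx15 (-0.019) and tbx18 (-0.22) did not pass. Leaving out 1 sample gave 9 to 13 rises in this list, the fewest without mutant b, and 1 or 2 falls. Library totals gave 17 rises and 1 fall.

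Cartilage matrix genes went opposite to the sox9 copies. Of 26 other cartilage genes 13 (50%) fell, beside 16.7% of all genes tested, none rose and the median was -0.25. In each alternative of scaling, test and samples 12 or 13 fell. For matn1, a cartilage matrix protein gene, FPKM was 178.59, 140.24 and 149.98 in mutants, against 315.13, 312.53 and 305.81 in wild type. The log2 change of matn1 was -1.10, and those of mia and ucmab were -1.25 and -1.04. The collagen gene col2a1a, a target of Sox9, fell by 0.59 on the log2 scale. The partner factor genes sox5 (-0.01) and sox6 (0.06) and the aggrecan genes acana (-0.018) and acanb (0.11) did not pass.

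Of 26 fin fold genes 4 fell (15.4%, beside 16.7% of all genes tested), none rose and the median was -0.024. There were 9 falls without wild type a, where the median was -0.13. Without mutant a 2 fell, without wild type b 2 rose and 2 fell, and without wild type c 1 rose and 2 fell. DESeq2 gave 1 rise and 7 falls, the replicate block 2 rises and 2 falls, and library totals no rise and 2 falls. Besides and1 (-0.34) and and2 these were col2a1a, which this list shares with the cartilage list, and the laminin gene lamb1a (-0.27). The basement membrane genes fras1 (0.39, adjusted p 0.0717) and lama5 (0.046) did not pass. Proteoglycan synthesis genes other than ext2 and extl3 rose in 5 of 30 cases (16.7%) and fell in 2 (6.67%), among them ext1b (0.51), papss1 (0.57) and uxs1 (-0.51). Over all genes tested 16.5% rose and 16.7% fell. Without wild type a 4 of the proteoglycan genes rose and 4 fell. Without mutant b 1 of the proteoglycan genes rose and 1 fell, and 3 rose without mutant a, mutant c or wild type c. Of 21 genes of fin muscle precursors 5 rose (23.8%, beside 16.5% of all genes) and 2 fell (9.52%, beside 16.7%). The receptor gene met, which guides migrating precursors, had 4.76, 4.84 and 4.96 FPKM in mutants, against 2.10, 2.62 and 2.86 FPKM in wild type (log2 change 0.84, adjusted p 0.000319), and lbx1a rose by 0.80. With library totals 12 genes of this list rose and 1 fell, and leaving out 1 sample gave 4 to 7 rises and 1 to 3 falls.

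**Figure D4:**
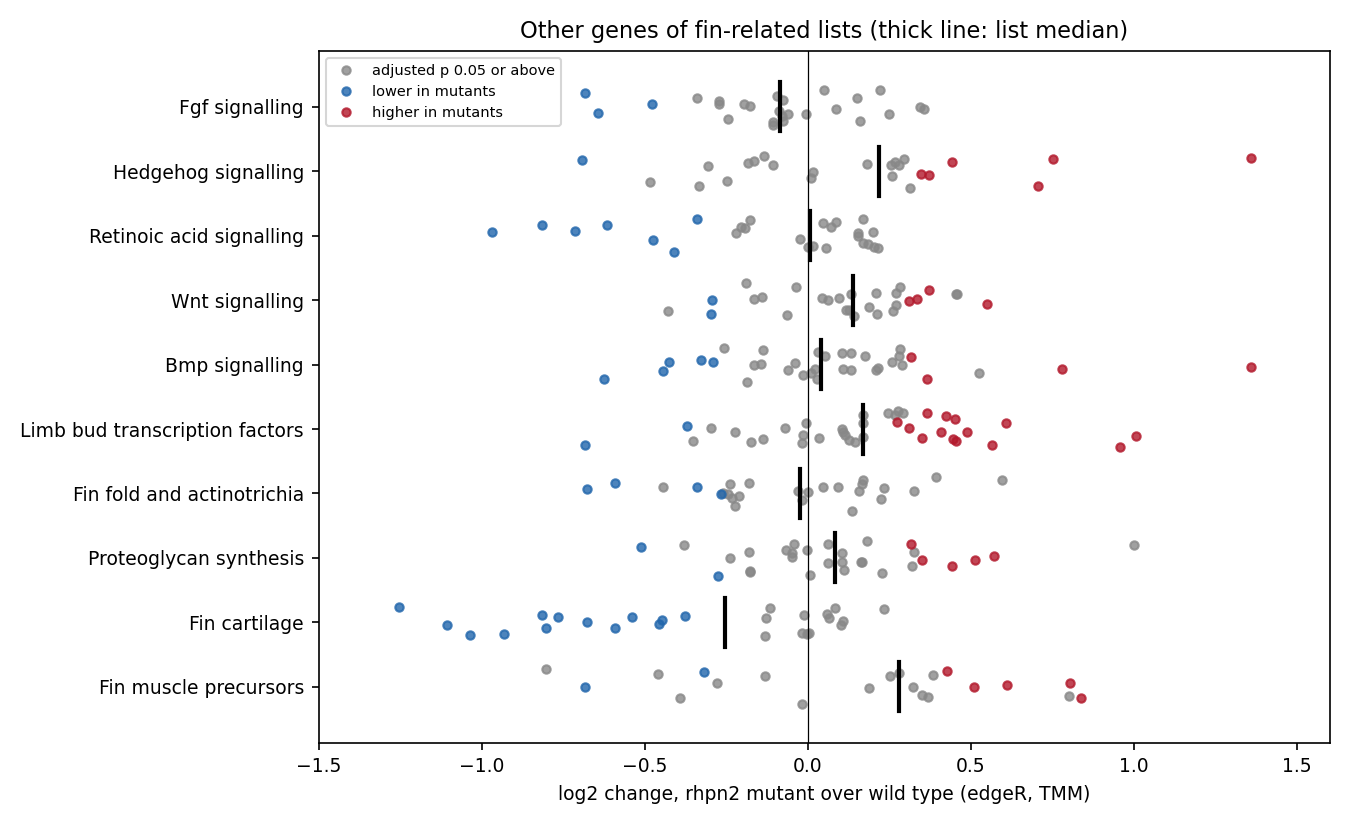
Log2 change in rhpn2 mutants over wild type (edgeR, TMM scaling) of the genes in 10 fin-related lists, members of the 21 left out. Each point is a gene, colours mark calls at an adjusted p below 0.05, and thick lines are list medians, lowest for cartilage (-0.25) and highest for muscle precursors (0.28).

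The calls of sall1a, sall4, irx1a, sp8b, sox9a, sox9b, apc, fgf24 and rdh1 held in each alternative of scaling, filter, test and sample set that was run. Library totals moved every log2 change of the 21 genes upward, and the median of all genes tested from 0.006 to 0.113. The number of falls was 3 on that scale. The limma fits used FPKM, which has the same scaling, so these alternatives bear on the falls and hardly test the rises. With library totals sp9 and crbn had positive log2 changes.

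**Figure D5:**
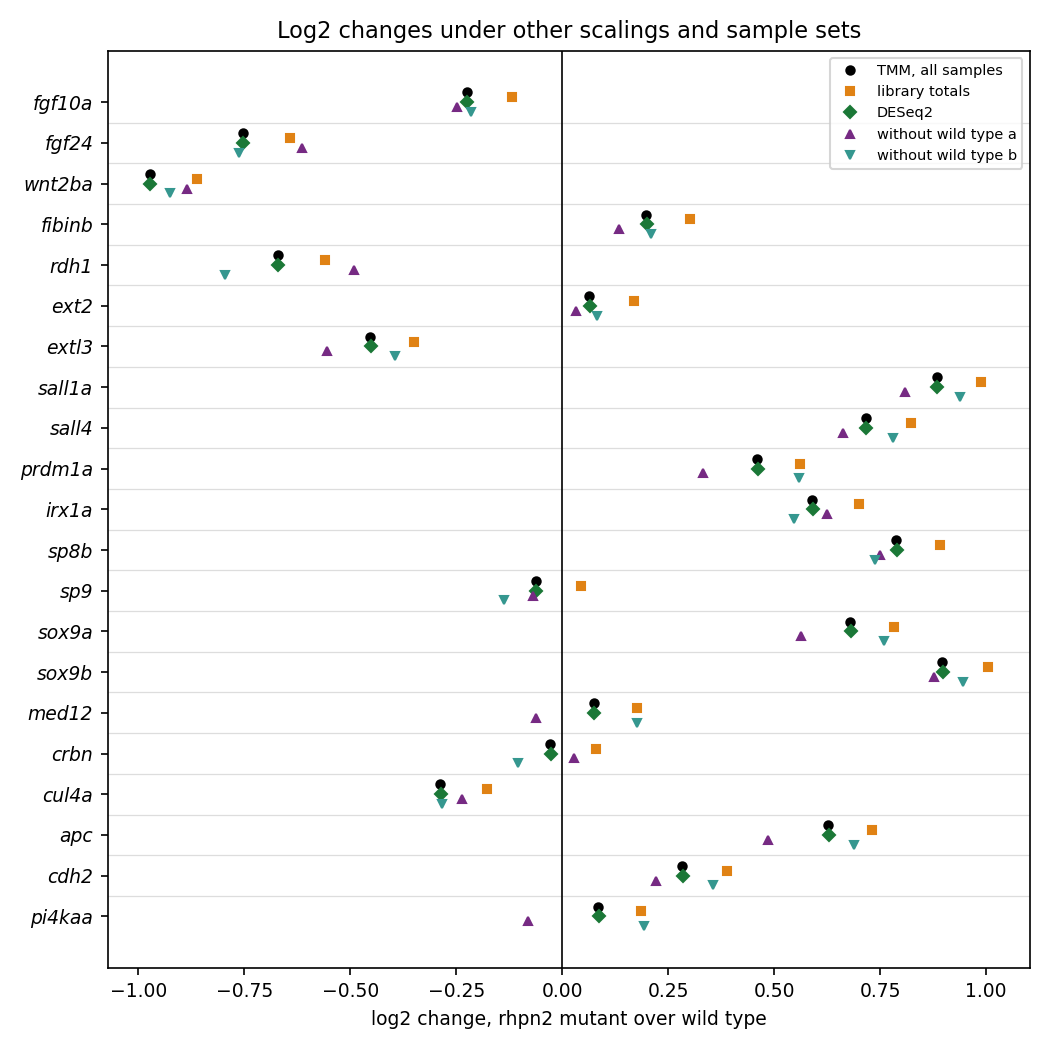
Log2 change of each gene in rhpn2 mutants over wild type with TMM scaling, library totals, DESeq2, and edgeR without wild type a or wild type b. The squares of library totals lie to the right of the TMM points in every row, and the upright triangles without wild type a lie left of 0 for med12 and pi4kaa.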

How the data were processed

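RNA of whole embryos was extracted with TRIzol and sequenced from NEBNext Ultra libraries, per the labels' protocols. The submitters' processing notes name Salmon 1.9.0, STAR 2.7.10a, fastp 0.23.2 and bcl2fastq 2.20.0.422 without their roles. Not given in the sources used here are the genome build, the annotation, the counter, the strand setting and the treatment of paralogs, and coordinates are those of the deposited table. The deposited table holds whole-number read counts per gene in each of the 6 samples. It also holds FPKM that the authors computed from those counts, the exonic gene size and the sample total, as recomputation showed. Library totals were 14918069 to 17056923 counts, so a count of 3 equals 0.176 to 0.201 CPM. Sample groups came from the labels, and table columns named for controls were matched to the wild type samples.

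Counts were tested with edgeR 4.0.16 (R 4.3.3): TMM scaling, filterByExpr (minimum count 10, minimum total 15), quasi-likelihood test, Benjamini-Hochberg adjustment over 20032 genes, threshold 0.05. SE was taken from the log2 change and the F value, and 95% intervals are normal. Alternatives were no filter, median-of-ratios scaling, library totals, DESeq2 1.42.0, limma 3.58.1 on log2(FPKM + 1) and log2(FPKM + 0.1) where mean FPKM reached 1, a replicate block, and leaving out each sample. Called members, and limb bud signals whatever they did, were named with values; every member is given. Genes outside the members come from 10 lists and 5 marker sets. Members and lists were chosen with earlier results of these data known.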

Additional observations from a re-analysis of the deposited data

How the results depend on the processing

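The number of rises among the 21 genes (8 or 9) and the rhpn2 change kept their side under every alternative of scaling, filter and test. The falls were the less stable calls: 3 with library totals, 3 with limma on log2(FPKM + 1), 2 with limma on log2(FPKM + 0.1) and 3 with the replicate block, beside 5. Library totals and both limma fits share an upward shift of all genes, which makes falls harder to call and rises easier. The median log2 change of the 21 genes was 0.19 with library totals, 0.18 with limma on log2(FPKM + 1) and 0.21 with limma on log2(FPKM + 0.1), scales on which the median of all genes was 0.113, 0.101 and 0.119. Rises made up 65.0% of all calls with library totals, beside 49.7% with TMM scaling. Leaving out 1 sample gave 10 to 13 calls, 7 to 9 rises, 3 to 5 falls, a median of 0.031 to 0.19 and an rhpn2 change of -2.17 to -2.07. Over all genes 24.1% (without mutant b) to 33.1% (without wild type a) were then called, beside 33.2% with all samples. The sign of sp9 turned with library totals (0.044) and limma (0.043 and 0.047), as did that of crbn (0.079, 0.071 and 0.082). Leaving out 1 sample gave -0.14 to 0.0071 for sp9, -0.10 to 0.027 for crbn, -0.063 to 0.18 for med12 and -0.082 to 0.19 for pi4kaa, none of them called. The cause of these turns was not tested. Among the values of single members under alternatives, 235 kept direction and side, 26 lost the call and 12 turned.

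Samples with the same letter did not deviate together (r = -0.116, -0.049 and -0.162 for a, b and c), so the letters are not taken as pairs. The replicate block gave 11 calls among the 21 genes, 8 higher and 3 lower, with wnt2ba (adjusted p 0.0514), cul4a (0.0799) and cdh2 (0.0877) lost, and 5356 calls over all genes beside 6654. List counts under the alternatives were chosen after seeing the data. Depth limits wnt2ba most, at 14 to 41 counts a sample.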

Other observations

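Several of the 21 genes have duplicate copies that share ancestry, and the copies did not all carry the same call. In rhpn2 mutants sp8b rose while sp8a fell (log2 changes 0.79 and -0.37, edgeR adjusted p 0.000359 and 0.0258). FPKM of sp8a overlapped between the groups, with 8.44 in mutant b and 8.19 in wild type a. The main fit had 2 falls in the limb bud list, alx4a and sp8a. With library totals, with limma and without mutant a, mutant c, wild type b or wild type c that list held 1 fall. Which gene that was is not given here. For the spalt genes, sall1a rose by 0.88 and sall3b by 1.01 on the log2 scale, and sall1b (-0.30, adjusted p 0.478) and sall3a (0.29, adjusted p 0.175) did not pass in edgeR. Levels of sall1b were low, 0.47 ± 0.191 FPKM in mutants and 0.537 ± 0.11 FPKM in wild type (SD, n = 3 each). The ligand gene wnt2bb, a copy of wnt2ba, averaged 3.74 ± 0.618 FPKM in mutants and 3.83 ± 0.919 FPKM in wild type, with a log2 change of -0.14 (adjusted p 0.634 in edgeR). Of the ext1 copies, which encode the partner of Ext2 in the heparan sulfate polymerase, ext1b rose by 0.51, while ext1a (0.23, adjusted p 0.178) and ext1c (-0.38, adjusted p 0.0727) did not pass in edgeR. The difference between the copies of a gene was not tested in any of these cases, and how reads shared by copies were counted is not stated in the labels.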
